A study of Homo sapiens with 9 samples.

Results

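Glycolysis and hypoxia-responsive genes were measured in the human lung adenocarcinoma cell line A549 and in cells derived from it by transduction with OCT3/4, SOX2 and KLF4 (OSK). The genes were a fixed list of 40 names, and a gene was followed through any array probe that carries one of its RefSeq transcripts. Where a gene had several probes, the one with the highest mean over the 9 arrays stood for it. Of the 40 genes, 39 had a probe, among 21743 gene names on the arrays. ALDOA was not matched to a probe here and has no value.

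Each group was represented by 3 single-colour arrays, 1 RNA sample per array. Parental A549 cells were taken at passages P98 (replicates 1 and 2) and P99 (replicate 3). The other groups carried the OSK factors on pMXs retroviral vectors and were cultured as colonies that had been picked from the dish. After a short trypsin treatment, the cells that had come off, mostly spindle-shaped, were collected as OSK-A549-SN, and the colonies that stayed attached were picked as OSK-A549-Colony. Both transduced groups were at passages P106 (replicates 1 and 3) and P107 (replicate 2), and the study's methods give 3 independent transduction experiments as the source of the RNA. No array held cells with an empty vector, so the OSK factors, the later passage and the picking of colonies cannot be told apart in a comparison with parental cells. Each RNA came from many cells at once, in which fewer cells with a transcript and less of the transcript per cell cannot be told apart.

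In glycolysis, glucose enters through the SLC2A carriers, is phosphorylated by hexokinases and is split and oxidised to pyruvate, which lactate dehydrogenase can reduce to lactate for export through SLC16A carriers. The hypoxia-inducible factors HIF1A and EPAS1 (HIF-2α) are made continuously, and in the presence of oxygen the EGLN prolyl hydroxylases mark them for destruction through VHL. When oxygen is low they accumulate, pair with ARNT and bind DNA at a short core motif, ACGTG or GCGTG, near target genes that include most glycolytic enzymes, the glucose carriers, PDK1, CA9, BNIP3, BNIP3L, NDRG1, MXI1, ANKRD37 and EGLN3.

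The sequence just upstream of the genes holds this motif unevenly. RefSeq promoter windows (GRCh38.p14, 250 bases before each annotated start) were found for 36 of the 40 genes, 67 windows in all because several genes have more than 1 start. ACGTG, read on both strands, was present in 26 of the 67 windows (38.8%) and in 6501 of all 35116 windows in the table (18.5%). The overlapping longer palindrome CACGTG, the E-box bound by MYC, MAX and MXI1, was present in 8 of the 67 windows (11.9%) against 6.34% of all. GCGTG was present in 25 of the 67 (37.3%) against 32.2%. A match is a description of the letters and not a bound site. The windows below are shown because they belong to the called gene (MXI1), to the HIF subunit that passed the test across the 3 groups (EPAS1), and to 3 genes with large differences (HK2, ALDOC and ANKRD37). Each is written 5′ to 3′ on the strand of the gene, with ACGTG or its reverse complement CACGT in capitals.
MXI1, chr10:110209981-110210230, plus strand, 1 of 3 annotated starts: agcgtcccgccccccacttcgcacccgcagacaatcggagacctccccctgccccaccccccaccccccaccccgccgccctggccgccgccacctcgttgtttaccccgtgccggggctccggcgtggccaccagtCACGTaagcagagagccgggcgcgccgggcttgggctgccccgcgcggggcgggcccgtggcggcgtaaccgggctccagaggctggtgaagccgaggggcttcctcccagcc
EPAS1, chr2:46297157-46297406, plus strand: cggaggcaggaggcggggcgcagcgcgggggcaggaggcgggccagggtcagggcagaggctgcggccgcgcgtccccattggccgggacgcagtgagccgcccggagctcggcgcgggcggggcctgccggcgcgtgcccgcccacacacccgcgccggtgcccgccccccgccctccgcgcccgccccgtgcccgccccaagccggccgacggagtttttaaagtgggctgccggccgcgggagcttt
HK2, chr2:74834920-74835169, plus strand, 1 of 2 annotated starts: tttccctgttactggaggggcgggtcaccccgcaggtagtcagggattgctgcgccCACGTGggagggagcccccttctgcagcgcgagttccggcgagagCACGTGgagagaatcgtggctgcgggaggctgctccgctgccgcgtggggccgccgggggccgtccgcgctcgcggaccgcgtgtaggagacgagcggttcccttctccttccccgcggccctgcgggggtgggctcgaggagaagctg
ALDOC, chr17:28576896-28577145, minus strand: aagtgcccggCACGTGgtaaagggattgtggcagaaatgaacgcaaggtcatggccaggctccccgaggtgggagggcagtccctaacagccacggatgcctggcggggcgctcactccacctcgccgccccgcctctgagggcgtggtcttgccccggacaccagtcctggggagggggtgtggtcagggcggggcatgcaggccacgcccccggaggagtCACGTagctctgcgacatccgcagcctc
ANKRD37, chr4:185396591-185396840, plus strand: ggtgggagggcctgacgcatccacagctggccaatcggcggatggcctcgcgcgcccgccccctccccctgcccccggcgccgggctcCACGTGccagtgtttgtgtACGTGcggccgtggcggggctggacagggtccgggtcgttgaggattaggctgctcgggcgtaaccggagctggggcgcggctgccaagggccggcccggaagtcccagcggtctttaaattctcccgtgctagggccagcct

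The MXI1 window holds 1 match, whose first base lies at position -113 from the start, and the EPAS1 window holds no ACGTG but does hold the other core, GCGTG, which is not capitalised here. The HK2 window holds 2 copies of the E-box palindrome, and the ALDOC and ANKRD37 windows hold 1 copy each beside 1 match outside it. In the plot of motif positions, matches are spread over the whole window with no shared distance from the start.

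**Figure D1:**
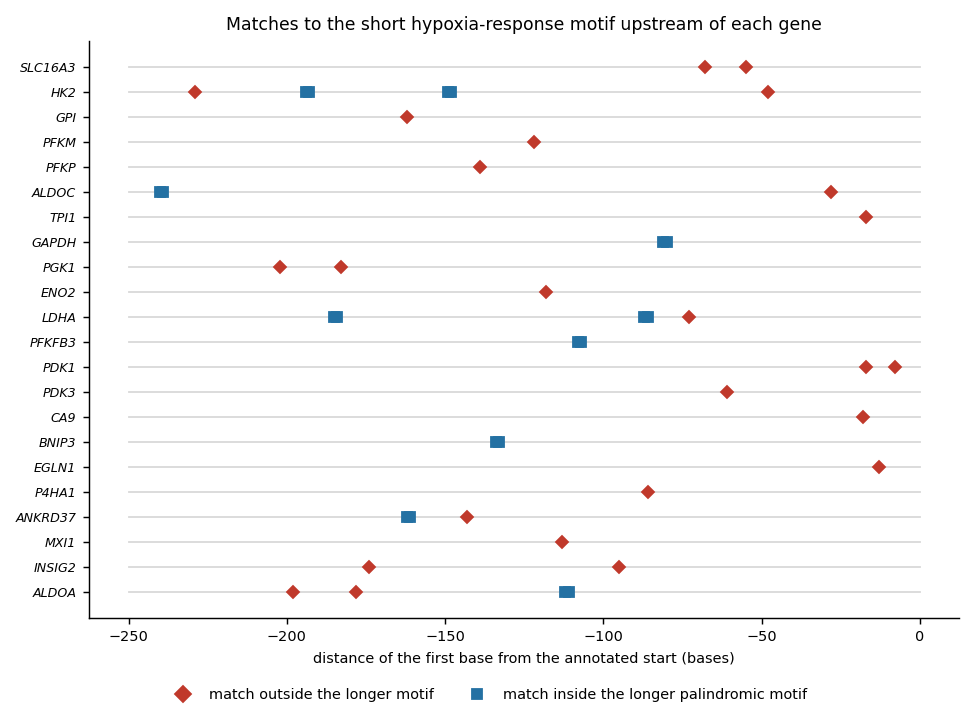
Positions of ACGTG matches (both strands) in the 250 bases before the annotated starts of the 22 listed genes that have one, with several starts of a gene overlaid; the x axis is the distance of the first base from the start in bases, red diamonds are matches outside CACGTG and blue squares are matches inside it. The squares of HK2, ALDOC, LDHA, GAPDH, PFKFB3, BNIP3, ANKRD37 and ALDOA mark the genes with the E-box palindrome; genes on chromosome 8 are not drawn.

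All values are log2 intensities relative to the 75th percentile of the array, so that 0 is the level of a fairly bright probe, and levels of different genes are not compared with each other. The 75th percentile lay at intensities of 217.5 to 270.6, and 25808 to 29315 of 50599 probes were detected per array. Correlations between arrays of one group, across probes, were 0.983 to 0.993 (parental), 0.994 to 0.997 (Colony) and 0.987 to 0.996 (SN). SN replicate 3 was the only array on slide 2, and the other 8 shared slide 1. The 5 epithelial markers KRT7, KRT8, KRT18, EPCAM and CDH1 were well above background on all 9 arrays, whereas none of 5 fibroblast markers was; 2 of 4 endothelial markers (CDH5 and VWF) and 2 of 4 leukocyte markers (PTPRC and CD14) were, and PECAM1 and COL3A1 stayed at background throughout. Of the 39 genes, 38 were well above background on all 9 arrays, the exception being HK2, which was not on parental replicate 3.

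In OSK-A549-Colony against parental A549 cells, 1 of the 39 genes was called (limma, Benjamini-Hochberg adjusted p under 0.05 over all 30864 probes tested and a fold change over 2), where 3.7% of all probes were (1.71% higher and 1.99% lower). That gene was MXI1, which fell. PFKM also passed the adjusted p, at a fold change under 2, where 9.02% of all probes passed. At an unadjusted p under 0.05, 11 of the 39 genes passed (30.1% of all probes), 4 of them with a fold change over 2 (6.6% of all probes). The difference was above 0 in 15 genes, against 47.2% of all probes. The differences of 29 of the 39 genes were smaller than 0.5 on the log2 scale, against 67.3% of all probes, and their median was -0.05 against -0.03 for all probes. In 14 genes the groups did not overlap (6 higher and 8 lower in Colony), where 41.6% of all probes did not overlap.

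In OSK-A549-SN against parental A549 cells, none of the 39 genes was called by limma, where 1.55% of 32218 probes were (0.705% higher), and none passed the adjusted p at any fold, where 1.82% of probes did. Both transduced groups were compared with the same 3 parental arrays, so the values of these comparisons are not independent. At an unadjusted p under 0.05, 11 of the 39 genes passed, where 21.6% of all probes did, and 1 of them (ALDOC) also had a fold change over 2, against 5.83% of all probes. The difference was above 0 in 23 genes (57.3% of all probes) and smaller than 0.5 in 28 (70.1%). The groups did not overlap in 13 genes (8 higher and 5 lower in SN) against 32.1% of all probes (16.8% higher), and the median difference was 0.04 against 0.08 for all probes. In OSK-A549-Colony against OSK-A549-SN, no gene of the list and 0% of 31746 probes were called by limma, and 7 of the 39 genes had an unadjusted p under 0.05 against 19.5% of all probes. Among them SLC2A3 had a fold change over 2, against 2.09% of all probes. The difference was above 0 in 10 genes (41.9% of all probes) and smaller than 0.5 in 34 (80.3%). All 7 genes whose groups did not overlap here were lower in Colony, namely PFKL, PFKM, TPI1, PGAM1, PDK3, EPAS1 and MXI1. The other probes of TPI1, PGAM1 and MXI1 overlapped. Of all probes, 30.8% did not overlap, 17.3% being lower in Colony. Across the 3 groups, limma's F test on all 9 arrays passed 3 of the 39 genes (MXI1, EPAS1 and PFKM), where 11.4% of 33083 probes passed. In each of these comparisons the share of the list past the threshold was near or below the share of all probes.

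**Figure D2:**
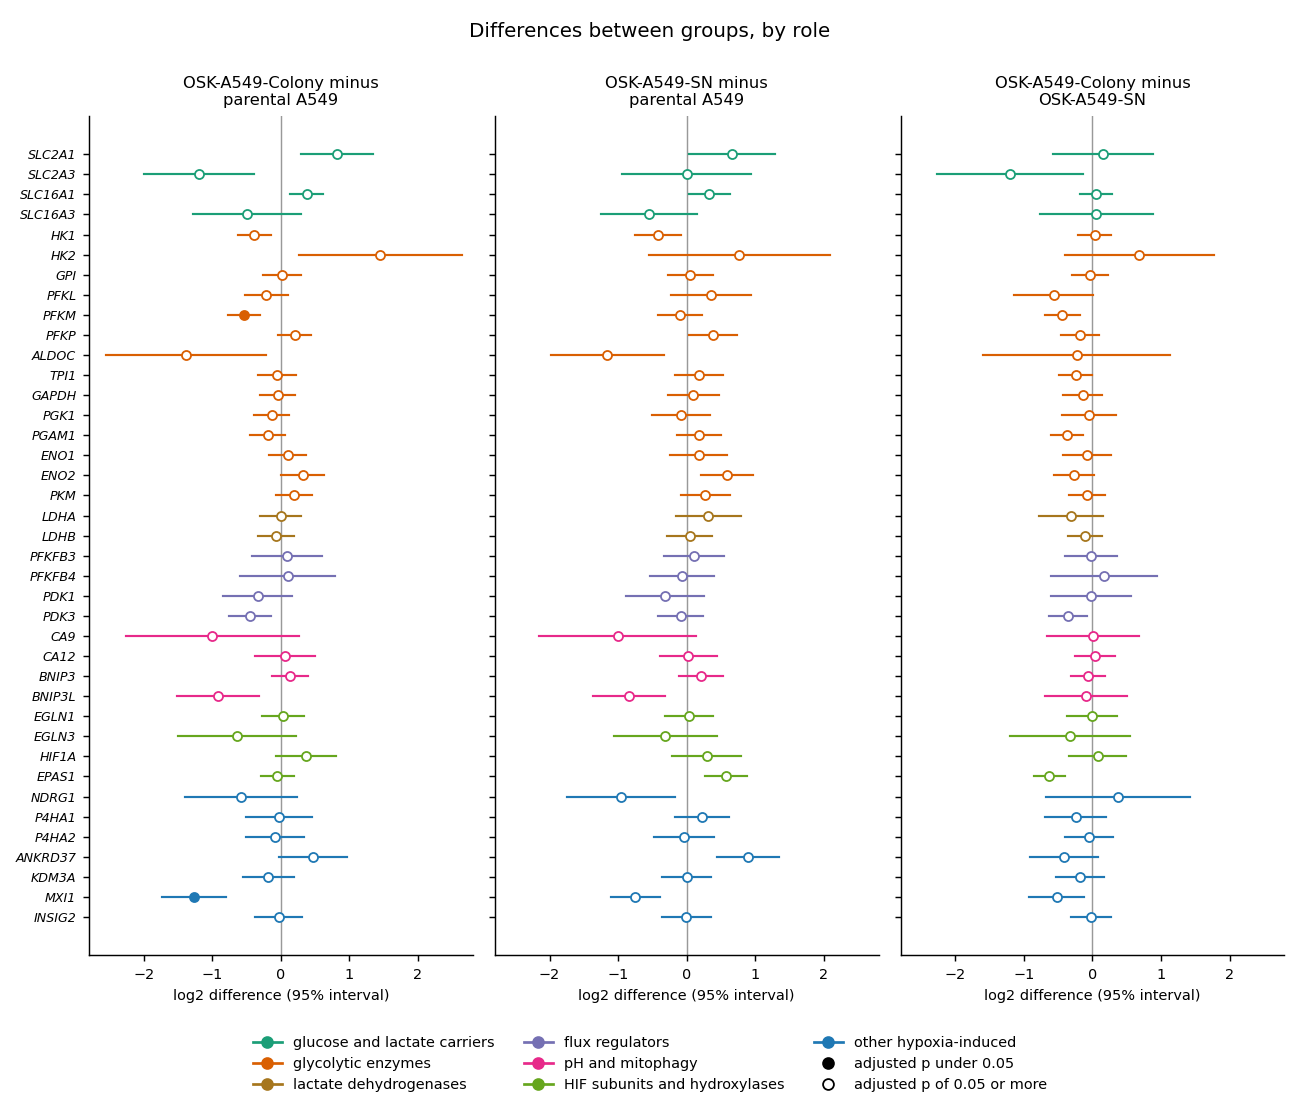
Log2 difference between groups for the 39 genes, ordered and coloured by role, in the 3 comparisons; points are limma estimates from 3 arrays per group, bars are 95% intervals, and filled points have an adjusted p under 0.05. MXI1 (-1.27) and PFKM (-0.54) in OSK-A549-Colony against parental A549 are the filled points, and the widest intervals belong to HK2, ALDOC and CA9.

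MXI1, a MAX-binding repressor of MYC targets that HIF induces, was at 0.68, 1.02 and 0.96 on the parental arrays, at -0.10, -0.37 and -0.68 in Colony and at 0.20, 0.11 and 0.11 in SN. The 3 groups did not overlap, with SN between parental and Colony cells. In Colony cells MXI1 fell by 1.27 on the log2 scale (SE 0.19, limma adjusted p = 0.027), a fold change of 2.41. In SN cells the difference from parental was -0.75 (SE 0.14, adjusted p = 0.066; 0.022 with normexp background correction, 0.0282 with the stricter detection filter and 0.0331 with all 9 arrays in 1 fit), and between Colony and SN it was -0.52 (SE 0.16, adjusted p = 0.193). MXI1 has 3 probes, all lower in Colony, and the other 2 differed by -0.92 (adjusted p = 0.102) and -1.48 (adjusted p = 0.026). The adjusted p of MXI1 in Colony rose to 0.0888, 0.0631, 0.116 and 0.0912 without parental replicate 2 or Colony replicate 1, 2 or 3, while the difference stayed between -1.41 and -1.12 over all arrays left out in turn. It was 0.126 with the replicate number as a block, the difference being unchanged. With normexp background correction the difference was -0.98 (adjusted p = 0.00683), a fold change just under 2.

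EPAS1, the HIF-2α subunit, was at 6.52, 6.40 and 6.50 in parental cells, at 6.37, 6.43 and 6.47 in Colony and at 7.15, 7.07 and 6.94 in SN. The SN arrays all lay above the other 6, and the parental and Colony arrays overlapped. The F test across the groups passed (adjusted p = 0.016). In the pairwise fits the SN cells were higher than parental by 0.58 (SE 0.13, adjusted p = 0.0836) and higher than Colony by 0.63 (95% interval 0.40 to 0.86, adjusted p = 0.105), and neither passed the threshold. With SN replicate 1, SN replicate 2 or Colony replicate 2 left out, or with the replicate number as a block, EPAS1 did not pass the F test. With normexp background correction both differences passed (adjusted p = 0.0174 and 0.0161), as they did with the stricter detection filter (0.0443 and 0.0445), and the difference from parental also did with all 9 arrays in 1 fit (0.0164). The alternative alpha subunit HIF1A was at 1.95, 2.27 and 1.75 in parental cells, 2.16, 2.41 and 2.52 in Colony and 2.12, 2.16 and 2.58 in SN, with overlap of all groups and limma differences from parental of 0.37 (SE 0.18, adjusted p = 0.224) and 0.29 (SE 0.21, adjusted p = 0.444). Without 1 array the HIF1A difference in SN ranged from 0.15 to 0.43. A second HIF1A probe, well above background on all arrays, lay higher without overlap in both transduced groups, by 0.69 in Colony (SE 0.22, adjusted p = 0.108) and 0.51 in SN (SE 0.24, adjusted p = 0.285).

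PFKM, the muscle-type phosphofructokinase of the committed step of glycolysis, was at 4.12, 4.12 and 4.22 in parental cells, 3.55, 3.68 and 3.62 in Colony and 3.97, 4.22 and 3.98 in SN. All Colony arrays lay below the other 6, and parental and SN arrays overlapped. The Colony difference from parental was -0.54 (SE 0.10, limma adjusted p = 0.0346) and the SN difference was -0.10 (SE 0.13, adjusted p = 0.695). The adjusted p of PFKM was above 0.05 with median scaling (0.0648), without the detection filter (0.0891) and with the replicate number as a block (0.142). It was also above 0.05 when any array other than parental replicate 3 was left out (0.0537 to 0.134). The liver-type PFKL was at 3.01, 2.81 and 3.04 in parental cells, 2.76, 2.89 and 2.59 in Colony and 3.05, 3.07 and 3.81 in SN, its highest value being SN replicate 3, the array on slide 2. The PFKL difference of Colony from SN was -0.57 (SE 0.23, adjusted p = 0.264), and -0.32 without SN replicate 3. The platelet-type PFKP had limma differences from parental of 0.20 in Colony and 0.38 in SN (adjusted p = 0.225 and 0.206), and both of its probes were higher in both transduced groups.

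**Figure D3:**
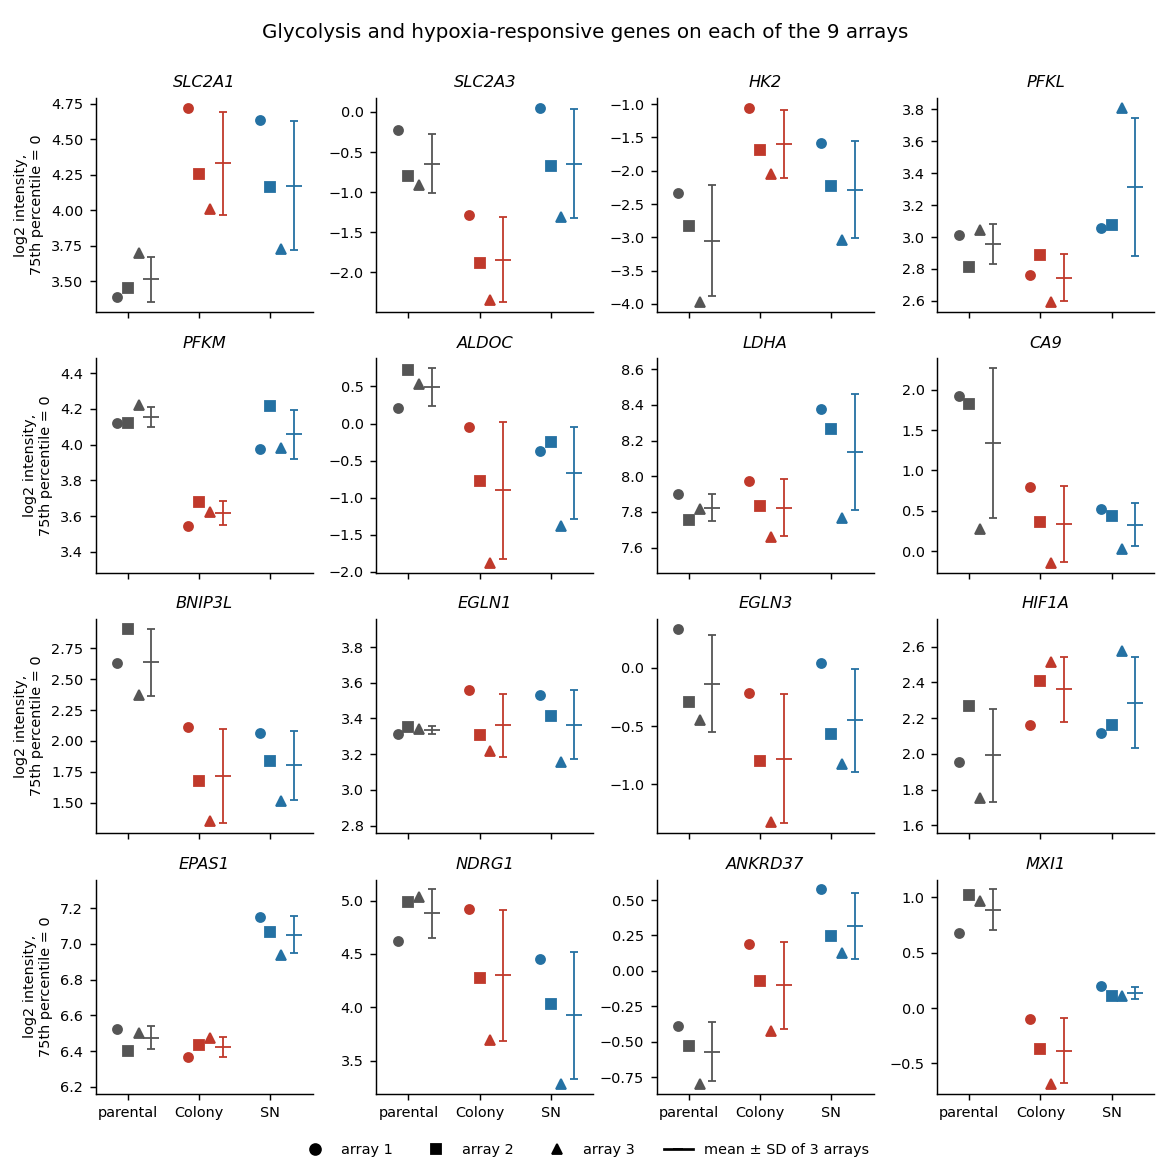
Log2 intensity relative to the 75th percentile of the array for 16 genes on each of the 9 arrays; circles, squares and triangles are replicates 1, 2 and 3, and the bar beside them is the mean ± SD of the 3 arrays of a group (y axes differ between panels). MXI1 separates the 3 groups, EPAS1 is high in the SN arrays, PFKM is low in the Colony arrays, and in SLC2A1, SLC2A3, HK2, EGLN3 and NDRG1 replicate 1 is highest and replicate 3 lowest in both transduced groups.

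Among the carriers, SLC2A1 (GLUT1), the main basal glucose carrier, was at 3.39, 3.45 and 3.69 in parental cells, 4.72, 4.26 and 4.01 in Colony and 4.63, 4.16 and 3.72 in SN. All 6 transduced arrays lay above all parental arrays, SN replicate 3 by the smallest margin. The limma differences were 0.82 (SE 0.21, adjusted p = 0.0682) in Colony and 0.66 (SE 0.25, adjusted p = 0.212) in SN. Without 1 array the SLC2A1 differences ranged from 0.62 to 0.98 in Colony and from 0.43 to 0.89 in SN. Under 3 of 15 alternatives the Colony difference passed the adjusted p. SLC2A3 (GLUT3), a high-affinity glucose carrier, was at -0.22, -0.79 and -0.92 in parental cells, -1.29, -1.88 and -2.35 in Colony and 0.05, -0.67 and -1.31 in SN. Every Colony array lay below every parental array, while the SN arrays spanned the parental range. The Colony difference was -1.20 from parental (SE 0.33, adjusted p = 0.0758) and -1.20 from SN (SE 0.43, adjusted p = 0.224), and the SN difference from parental was 0.00 (95% interval -0.94 to 0.94). Each Colony array lay below the SN array of the same number. With the replicate number as a block the SE of the Colony difference from SN was smaller, as given in the closing section. The second SLC2A3 probe gave -1.27 for Colony against parental and was well above background on only 1 Colony array. Of the lactate carriers, SLC16A1 (MCT1) differed from parental by 0.38 in Colony and 0.33 in SN without overlap (adjusted p = 0.0674 and 0.203), and SLC16A3 (MCT4) by -0.49 and -0.55 with overlap.

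None of the 14 glycolytic enzymes was called by limma in any pairwise comparison. In Colony against parental cells 8 of the 14 did not overlap, 4 higher and 4 lower, where 41.6% of all probes did not, and in SN 6 of the 14 did not, where 32.1% of all probes did not. For GPI, TPI1, GAPDH, PGK1, PGAM1, ENO1 and PKM the differences from parental lay between -0.19 (PGAM1) and 0.19 (PKM) in Colony and between -0.09 (PGK1) and 0.27 (PKM) in SN, and none had an unadjusted p under 0.05 in either comparison. Among these, PGAM1 lay lower in Colony and PKM higher in both transduced groups without overlap. The second PGAM1 probe overlapped, with a difference of -0.03 in Colony. The 95% interval of GAPDH, the enzyme that gives the first NADH, was -0.30 to 0.21 in Colony, and that of PGK1, which makes the first ATP, was -0.39 to 0.12. LDHA was at 7.90, 7.76 and 7.81 in parental cells, 7.98, 7.84 and 7.66 in Colony and 8.38, 8.26 and 7.77 in SN. The 95% interval of its Colony difference was -0.30 to 0.30, and its SN difference was 0.31 (95% interval -0.16 to 0.79), the groups overlapping in both. Without 1 array the SN difference ranged from 0.19 to 0.50. The second LDHA probe differed by 0.14 in Colony and 0.43 in SN, also with overlap. LDHB, the form that favours pyruvate, differed by -0.07 and 0.04.

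Larger differences were measured for isoforms of the hexokinases, aldolase and enolase, none of which passed the adjusted p. HK2, the inducible hexokinase, was at -2.34, -2.83 and -3.98 in parental cells, -1.05, -1.68 and -2.06 in Colony and -1.58, -2.23 and -3.04 in SN. The Colony arrays all lay above the parental arrays, and the SN arrays overlapped them. The Colony difference was 1.45 (SE 0.48, limma adjusted p = 0.113), and it was 0.55 with normexp background correction, parental replicate 3 not being well above background. HK1, the constitutive hexokinase, did not overlap with parental cells in either transduced group, with a difference of -0.39 in Colony (SE 0.10, adjusted p = 0.0679) and -0.42 in SN (SE 0.14, adjusted p = 0.161). ALDOC, the brain-type aldolase, was at 0.21, 0.72 and 0.53 in parental cells, -0.04, -0.77 and -1.88 in Colony and -0.37, -0.25 and -1.39 in SN. All 6 transduced arrays lay below the parental ones, but they ranged over 1.84 in Colony and 1.14 in SN. The differences of ALDOC were -1.39 (SE 0.47, adjusted p = 0.119; -0.90 without Colony replicate 3) and -1.16 (SE 0.34, adjusted p = 0.135). ENO2, the neuronal enolase, lay higher without overlap by 0.32 in Colony and 0.59 in SN (adjusted p = 0.159 and 0.112).

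The regulators of flux gave no call. PFKFB3 and PFKFB4, which set the level of the phosphofructokinase activator fructose 2,6-bisphosphate, differed from parental by between -0.07 and 0.11, and the 2 probes of PFKFB3 disagreed in sign. PDK1 and PDK3, kinases that switch off pyruvate dehydrogenase, differed by -0.34 and -0.45 in Colony and by -0.32 and -0.09 in SN; only PDK3 in Colony did so without overlap (SE 0.12, limma adjusted p = 0.0796).

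CA9, a membrane carbonic anhydrase and a common marker of HIF activity, was at 1.92, 1.83 and 0.27 in parental cells, 0.79, 0.36 and -0.14 in Colony and 0.53, 0.44 and 0.03 in SN. Parental replicates 1 and 2 lay above all other arrays and parental replicate 3 lay among the transduced ones. The 95% interval of the difference was -2.26 to 0.26 in Colony (limma adjusted p = 0.249) and -2.16 to 0.14 in SN (adjusted p = 0.282). Without parental replicate 3, CA9 was called in Colony, with a difference of -1.53 (adjusted p = 0.0459). BNIP3L (NIX), a mitophagy receptor, was at 2.63, 2.91 and 2.37 in parental cells, 2.11, 1.67 and 1.35 in Colony and 2.06, 1.83 and 1.51 in SN. All 6 transduced arrays lay below the parental arrays, with a difference of -0.92 in Colony (SE 0.24, adjusted p = 0.0703) and -0.84 in SN (SE 0.21, adjusted p = 0.107). Its paralog BNIP3 and the carbonic anhydrase CA12 differed by 0.03 to 0.20 with overlap.

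The oxygen-sensing hydroxylases showed no call. EGLN1 (PHD2), the main HIF hydroxylase, was at 3.31, 3.35 and 3.34 in parental cells, 3.56, 3.31 and 3.22 in Colony and 3.53, 3.41 and 3.16 in SN, so the parental arrays lay inside the range of both other groups. Its differences were 0.03 and 0.03, with 95% intervals of -0.28 to 0.33 and -0.32 to 0.39. EGLN3 (PHD3), itself a strong HIF target, was at 0.34, -0.29 and -0.45 in parental cells, -0.22, -0.80 and -1.33 in Colony and 0.04, -0.56 and -0.82 in SN. The groups overlapped, and the limma differences were -0.64 (SE 0.35, adjusted p = 0.272) and -0.31 (SE 0.31, adjusted p = 0.585). Without 1 array the EGLN3 differences ranged from -0.93 to -0.37 in Colony and from -0.56 to -0.08 in SN.

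Among the remaining hypoxia-induced genes the directions were mixed. NDRG1, a stress-responsive gene of growth control, was at 4.62, 4.98 and 5.03 in parental cells, 4.92, 4.28 and 3.69 in Colony and 4.46, 4.04 and 3.28 in SN. The SN arrays lay below the parental arrays, and the Colony arrays overlapped them, with differences of -0.95 (SE 0.32, limma adjusted p = 0.17) and -0.58 (SE 0.33, adjusted p = 0.293). The NDRG1 difference was -0.63 in SN without SN replicate 3, and in Colony it was -0.28 without Colony replicate 3 and -0.89 without Colony replicate 1. ANKRD37, a small ankyrin-repeat protein, was at -0.39, -0.53 and -0.80 in parental cells, 0.19, -0.07 and -0.42 in Colony and 0.58, 0.25 and 0.13 in SN. The SN arrays lay above the parental arrays by 0.89 (SE 0.19, adjusted p = 0.0772), and Colony replicate 3 overlapped the parental range (difference 0.47, SE 0.20, adjusted p = 0.182). Under 3 of 16 alternatives the SN difference passed the adjusted p. ANKRD37 did not pass the F test in the main fit (adjusted p = 0.0553). It passed with normexp, quantile normalization, the stricter detection filter or the replicate number as a block. The collagen prolyl hydroxylases P4HA1 and P4HA2, the histone demethylase KDM3A and the sterol regulator INSIG2 differed from parental by between -0.18 and 0.22 in both groups, all with overlap.

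The spread between arrays of a group was read against that of all probes of the same group. In Colony cells the SD over the 3 arrays exceeded the 90th percentile of all probes (0.25) in 13 of the 23 genes that are neither glycolytic enzymes nor lactate dehydrogenases, and in 1 of the 15 enzymes and dehydrogenases detected on all arrays. In SN cells the counts were 5 of 23 and 2 of 15 (90th percentile 0.40), and in parental cells 1 of 23 and 0 of 15 (0.45). The median SD of the 23 genes was 0.29 in Colony, 0.19 in SN and 0.21 in parental cells, and that of all probes was 0.09, 0.16 and 0.21. These comparisons with all probes are descriptions without a test, and were chosen after the values were seen.

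Replicate 1 was the highest and replicate 3 the lowest array in both Colony and SN in 15 of these 23 genes (65.2%), in 1 of the 15 enzymes and dehydrogenases (LDHA) and in 1291 of the 23758 probes detected on all 9 arrays (5.43%). The 15 genes were SLC2A1, SLC2A3, SLC16A3, PFKFB4, PDK1, CA9, BNIP3L, EGLN1, EGLN3, NDRG1, P4HA1, P4HA2, ANKRD37, KDM3A and INSIG2, and HK2, which was not counted for its dim parental array, had the same order. NDRG1 was 1.23 higher on Colony replicate 1 than on Colony replicate 3 and 1.17 higher on SN replicate 1 than on SN replicate 3. For SLC2A3 these differences were 1.06 and 1.37, for EGLN3 1.11 and 0.86, and for CA9 0.93 and 0.50. HIF1A went the other way, by -0.36 and -0.46. The enzymes and dehydrogenases were also low on SN replicate 3, where 1 of the 16 (PFKL) lay above its SN mean and the median deviation was -0.17, and on Colony replicate 3, where 3 of the 16 lay above the Colony mean (median deviation -0.04). On parental replicate 2 the enzymes were likewise low, 4 of 16 lying above the parental mean (median deviation -0.07), and over all probes the median deviation was -0.05 on SN replicate 3, 0.01 on Colony replicate 3 and -0.05 on parental replicate 2. The parental arrays had the same order in 5 of the 15 genes (SLC2A3, PDK1, CA9, EGLN3 and ANKRD37), in 7 of the 23 in all (30.4%) and in 19.0% of all probes. This order, and the scalings it was counted under, were likewise chosen after the values were seen and carry no test.

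Across the 23 genes, the deviations from the group mean of same-numbered Colony and SN arrays correlated with r = 0.87 for replicate 1, 0.39 for replicate 2 and 0.84 for replicate 3, where the highest r between arrays of different number was 0.25; across the 23758 probes the same-number values were 0.24, 0.07 and 0.14. With the same-numbered parental arrays, r over the 23 genes was 0.32, 0.20 and 0.31 for Colony and 0.35, 0.23 and 0.099 for SN. These correlations are over genes of the same arrays, which are not independent, and carry no p-value. The deviations of a gene cancel within each group, so a high r for the same number by itself lowers r for different numbers. Replicates 1 and 3 were of the same passage in both groups, and the Colony arrays all lay on slide 1, while SN replicate 3 was on slide 2. With normexp, quantile or median scaling, 14, 14 and 16 of the 23 genes had this order in both groups, of which 14, 14 and 15 were among the 15 above, as did 2, 3 and 1 of the 15 enzymes and dehydrogenases, beside 5.06%, 6.12% and 4.39% of all probes. Of 24 further hypoxia-induced genes detected on all arrays, 7 (29.2%) had the order, among them VEGFA, ANGPTL4, BHLHE40, GYS1, TMEM45A and RAB20, as did 2 of 25 further enzymes and carriers of glucose use and 1 of 12 genes of HIF control. The part that oxygen, cell density or handling of the cultures had in this order was not tested.

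**Figure D4:**
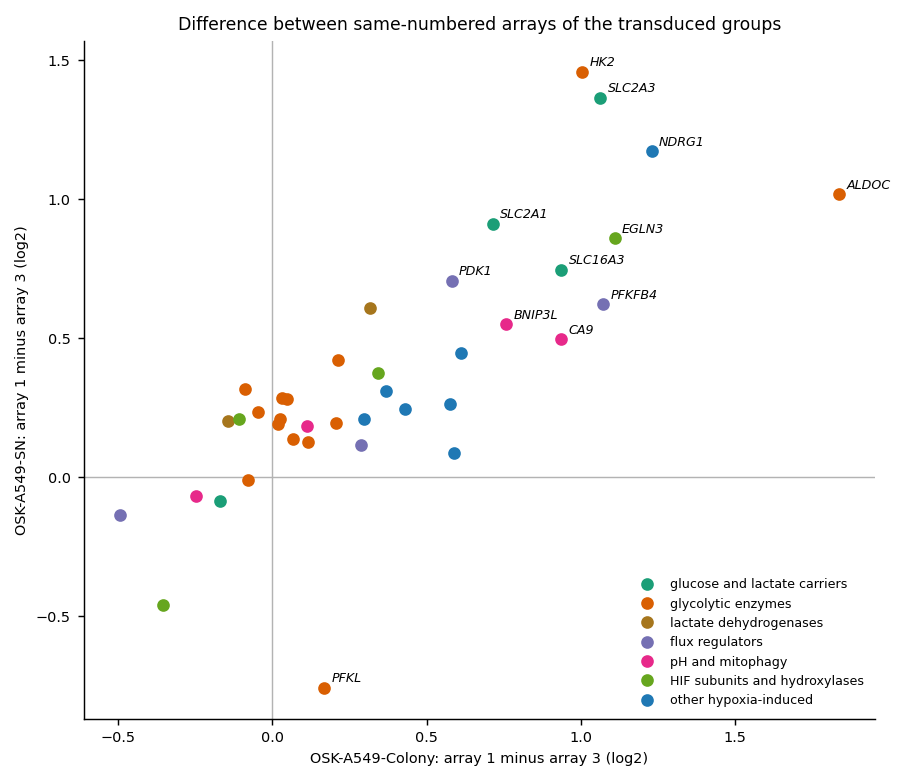
Log2 difference of replicate 1 minus replicate 3 in OSK-A549-Colony (x axis) and in OSK-A549-SN (y axis) for the 39 genes, coloured by role; each point is 1 gene and 1 array per replicate, so there is no error bar. Of the 16 glycolytic enzymes and lactate dehydrogenases, 12 lie above 0 on the Colony axis and 14 on the SN axis, most of them by less than NDRG1 (1.23 and 1.17), SLC2A3 (1.06 and 1.37) or ALDOC (1.84 and 1.02), and PFKL has the lowest value in SN (-0.76).

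Other genes of the same pathways were read from lists written from general knowledge. Of 28 further enzymes and carriers of glucose use tested in Colony against parental cells, 1 was called by limma, beside 3.7% of all probes, and none of 29 in SN, beside 1.55% (9 of the 29 had an unadjusted p under 0.05, beside 21.6%). PDK4, a pyruvate dehydrogenase kinase induced by fasting, fell by 1.04 on the log2 scale in Colony (SE 0.10, limma adjusted p = 0.0155); in SN it differed by -0.84 (SE 0.13, adjusted p = 0.0444), a fold change under 2. At any fold, 5 of the 28 passed the adjusted p in Colony, beside 9.02% of all probes. These were PDK4 and, named after their values were seen, PDHB of the pyruvate dehydrogenase complex (-0.51), the mitochondrial pyruvate carrier MPC1 (0.92), the ADP-dependent glucokinase ADPGK (0.52) and the hexokinase HKDC1 (0.63). Of 12 genes of HIF control (ARNT, VHL, HIF1AN and others) none was called by limma in any comparison, and 3, 2 and 1 had an unadjusted p under 0.05 in Colony against parental, SN against parental and Colony against SN, beside 30.1%, 21.6% and 19.5% of all probes. ELOB, a partner of VHL, passed the adjusted p in Colony at a fold change under 2 (0.89, adjusted p = 0.0465). Of 26 further hypoxia-induced genes, 3 were called in Colony, beside 3.7% of all probes. All 3 were higher (1.71% of all probes were called higher), among them STC2 and BHLHE41. In SN none of 25 was called, beside 1.55% of all probes. STC2, a secreted glycoprotein also induced by endoplasmic reticulum stress, rose by 2.12 (SE 0.27, adjusted p = 0.0221) in Colony and was in SN 1.02 above parental (adjusted p = 0.0932). BHLHE41, a transcriptional repressor, stayed at background on all parental arrays and was at least 1.77-fold higher in Colony (adjusted p = 0.0279), a bound set by the lowest signal well above background on the parental arrays. At any fold, 5 of the 26 passed the adjusted p in Colony, beside 9.02% of all probes, HILPDA (-0.78) and VLDLR (0.84) being those with a fold change under 2. The median differences of the further hypoxia-induced genes were -0.02 in Colony and 0.04 in SN, beside -0.03 and 0.08 for all probes.

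The epithelial marker CDH1 (E-cadherin) was 1.99-fold lower in Colony than in parental cells (limma adjusted p = 0.0318), the only marker of the 4 cell type lists past the adjusted p in that comparison; its part in the values above was not tested. Genes were also set apart by the upstream ACGTG motif, as a description with no test. The 21 measured genes with it had a median Colony difference of -0.03 and an SN difference of 0.05, and the 14 without it had -0.06 and 0.11. Some of the 14, EPAS1 and HIF1A among them, hold the other core, GCGTG, so the 14 are not a group without the core motif.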

How the data were processed

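RNA was hybridised by the authors to SuperPrint G3 human arrays. The deposited intensity of each spot (processed signal of Agilent Feature Extraction 11.5.1.1) was already background-subtracted and not scaled between arrays; the authors also deposited a log2 table of the same arrays, used as an alternative. Control and outlier spots were left out, spots of a probe were averaged, and the 75th percentile of each array was subtracted from its log2 values. A probe was detected where a share of at least 0.5 of its spots was positive, significant and well above background; the dim probes and the number of arrays limit the precision. Gene names came from RefSeq accessions. Each comparison was fitted on its own 6 arrays with limma 3.58.1 in R 4.3.3 (lmFit, eBayes) over probes detected on at least 1 of them, with Benjamini-Hochberg adjustment over all of them; scripts were tested on simulated data. The normexp alternative used median spot brightness with an offset of 50. The alternatives are given in the closing section.

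Values per array are given for genes called or past the F test, the 5 largest differences per comparison among genes well above background in the brighter group, and HIF1A, EPAS1, EGLN1, EGLN3, SLC2A1, LDHA and CA9; from the other lists, called genes are named, except 1 that is not reported here. The genes, lists and tests were chosen with earlier results of these data known. P-values set the difference between groups against the spread between the arrays of a group, all from the same cell line.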

Additional observations from a re-analysis of the deposited data

How the results depend on the processing

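MXI1 kept its direction in OSK-A549-Colony against parental A549 under every alternative, and the precision is limited by 3 arrays per group. The number of listed genes called in that comparison, 1, was 0 with normexp background correction, 0 with the replicate number as a block, 2 with detection required on every array of 1 group (SLC2A3 and MXI1), 4 at an unadjusted p under 0.05 and fold over 2 (HK2, ALDOC, SLC2A3 and MXI1), 2 at any fold, and 0 to 2 without 1 array. In each of the other 2 comparisons, 1 gene passed the unadjusted threshold (ALDOC in OSK-A549-SN against parental A549, SLC2A3 between the transduced groups), and under the other alternatives none did. The F test passed 3 listed genes, 8 with normexp, 6 with quantile normalization, 8 with the stricter filter and 1 to 5 without 1 array.

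Over all probes, the 1143 calls in OSK-A549-Colony against parental A549 became 333 with normexp, 583 without a detection filter, 2038 at the unadjusted p, 2783 at any fold, and 0 to 1362 without 1 array. The 498 calls in OSK-A549-SN against parental A549 became 232 with normexp, 215 without the filter, 980 with the stricter filter, 187 with slide as a block, 1085 with all 9 arrays in 1 fit, 1879 at the unadjusted p and 0 to 190 without 1 array. The 0 calls in OSK-A549-Colony against OSK-A549-SN became 32 with normexp, 139 with the stricter filter, 9 with all 9 arrays in 1 fit and 662 at the unadjusted p. The F test's 3779 probes became 1978 without the filter, 5820 with the stricter filter, 1194 with the replicate block and 986 to 3981 without 1 array. With the replicate block no probe was called in any pairwise comparison (0 calls). The F test with the block passed 4 listed genes (HK2, SLC2A3, ANKRD37 and MXI1) and not PFKM or EPAS1. In OSK-A549-Colony against parental A549 the blocked adjusted p was 0.126 for MXI1 and 0.142 for PFKM, and for SLC2A3 between the transduced groups it was 0.224 with an SE of 0.11. The replicate number was not taken as a pairing in the main fits. Over all probes the same-number correlations between the transduced groups were 0.24, 0.07 and 0.14, and each of these arrays correlated best with its own number. The study's methods collect both cell types from the same trypsinised dish, and same-numbered samples share a passage. No label states that they came from the same dish or transduction, so a pairing is possible but was not settled.

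Scaling to the median in place of the 75th percentile moved the median of all probes by 0.16, 0.03 and 0.13 in the 3 comparisons; the median of the listed genes in OSK-A549-Colony against parental A549 was then 0.11 in place of -0.05, and the share of all calls that were higher went from 46.3% to 67.1%. Some differences that passed no threshold changed sign. Against parental A549, with quantile normalization EGLN1 was -0.035 for OSK-A549-Colony, -0.066 for OSK-A549-SN, and it ranged from -0.072 to 0.099 and from -0.051 to 0.14 without 1 array; EPAS1 in OSK-A549-Colony was 0.11 with median scaling. In OSK-A549-Colony against OSK-A549-SN, BNIP3L was 0.039 with median scaling and 0.0067 with the mean of its probes, and CA9 was -0.14 and SLC2A1 -0.070 with slide as a block. Without 1 array, BNIP3L ranged from -0.29 to 0.091, CA9 from -0.22 to 0.25, SLC2A1 from -0.070 to 0.39, HIF1A from -0.0092 to 0.22 and ALDOC from -0.66 to 0.26. SLC2A3 in OSK-A549-SN and LDHA in OSK-A549-Colony, both near 0 against parental A549, ranged from -0.35 to 0.33 and from -0.08 to 0.08. The cause of these changes was not tested. Slide as a block could not be fitted for OSK-A549-Colony against parental A549, whose 6 arrays share slide 1.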
